A study of Mus musculus with 6 samples.

Results

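Foxp3, the transcription factor that marks regulatory T cells (Tregs), and the 5 Ikaros family genes Ikzf1, Ikzf2, Ikzf3, Ikzf4 and Ikzf5 were followed in splenic CD4 T cells of mice with and without H2-O. These 6 genes were found by symbol among the 32285 genes counted in each library. H2-O is a chaperone-like class II molecule that modulates the peptide loading catalysed by H2-M in antigen-presenting cells. The study proposes that it cooperates with H2-M, which by its account conflicts with the original model. Spleens of 3 H2-O KO mice and of 3 H2-O WT mice gave 6 single cell libraries. All mice were C57BL6/J, 8 weeks old by the labels, and labelled naive for treatment. The study's methods give other ages and do not name the deleted part of H2-O. The knockout was present in the whole animal, so the T cells of H2-O KO mice also developed in H2-O KO hosts. Live CD3+ CD4+ NK1.1- cells were sorted, with B cells gated out.

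Foxp3 is a forkhead factor that works with many partner proteins and without which Tregs do not develop or keep their function. The Ikaros family factors are zinc finger proteins that bind DNA through their N-terminal fingers, pair with each other through their C-terminal fingers, and recruit chromatin remodelling and deacetylase complexes. Ikaros (Ikzf1) acts throughout lymphocyte development, Helios (Ikzf2) is abundant in Tregs and is often used as a Treg lineage marker, Aiolos (Ikzf3) is found in activated and effector lymphocytes, and Eos (Ikzf4) is a Foxp3 partner. Pegasus (Ikzf5) is the most divergent of the family.

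In the GRCm38 build Foxp3 (ENSMUSG00000039521) is an X-linked gene from 7573644 to 7595245 on the plus strand, Ikzf1 (ENSMUSG00000018654) is on chromosome 11 from 11685003 to 11772926 on the plus strand, and Ikzf3 (ENSMUSG00000018168) is on chromosome 11 from 98464902 to 98546031 on the minus strand. Ikzf2 (ENSMUSG00000025997) lies on chromosome 1 from 69531214 to 69687245, Ikzf4 (ENSMUSG00000002578) on chromosome 10 from 128630843 to 128645991 and Ikzf5 (ENSMUSG00000040167) on chromosome 7 from 131388652 to 131410521, all on the minus strand. RefSeq start windows of 300 bases, 250 before and 50 after each start, matched 3 of the 6 genes (build GRCm38.p6). They are shown for the contrast between Foxp3, which was high in 1 gate of T cells, and Ikzf1 and Ikzf5, which were found in all of them. The letters printed are the stretch of each window outside annotated untranslated regions, 5′ to 3′ on the gene's strand, with CG dinucleotides in capitals. The coordinates are chrX:7579426-7579566, chr11:11685675-11685924 and chr7:131410522-131410600.
Foxp3: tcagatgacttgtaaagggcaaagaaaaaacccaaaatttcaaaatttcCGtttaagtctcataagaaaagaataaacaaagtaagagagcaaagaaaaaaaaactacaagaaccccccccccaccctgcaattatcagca
Ikzf1: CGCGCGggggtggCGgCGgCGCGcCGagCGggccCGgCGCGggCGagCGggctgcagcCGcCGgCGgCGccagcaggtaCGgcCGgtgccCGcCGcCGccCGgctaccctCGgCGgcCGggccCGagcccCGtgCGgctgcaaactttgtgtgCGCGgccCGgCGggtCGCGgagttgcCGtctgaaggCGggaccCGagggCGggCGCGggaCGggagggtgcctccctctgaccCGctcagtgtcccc
Ikzf5: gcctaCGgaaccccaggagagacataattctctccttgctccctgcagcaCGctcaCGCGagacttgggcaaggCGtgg

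The whole Foxp3 window held 6 CG dinucleotides at 40.7% G and C, the Ikzf1 window 52 at 81.3% and the Ikzf5 window 27 at 65.7%. Over 32851 RefSeq windows of this length the median was 7 CG dinucleotides and 52.7% G and C. The Ikaros family core GGGAA, read on both strands, was found 1 time in the Foxp3 window, 0 times in the Ikzf1 window and 1 time in the Ikzf5 window, and 62.7% of all windows held it. A forkhead core, TGTTTAC, was in none of these 3 windows and in 3.65% of all windows. The Foxp3 window held 1 TATAAA, as 13.6% of all windows did. A further start window of Foxp3 had 8 CG dinucleotides and 0 matches to GGGAA, and a further one of Ikzf1 had 2 CG dinucleotides and 2 such matches.

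The 6 libraries held 9973193 to 40237962 UMIs (unique molecular identifiers, one per captured RNA molecule) in 38073 called cells, of which 29738 were kept. Cells were sorted into 6 gates by marker UMIs that did not include the 6 genes, which placed 25288 cells. The Treg gate asked for at least 2 of Il2ra, Ctla4, Tnfrsf18 and Tnfrsf4, one of them Il2ra or Ctla4, and the naive gate for a UMI of a naive T cell marker. The gates are named by these markers, and the Treg gate may also hold cells that are not Tregs. Of the gated cells, 3673 had under 10% of their UMIs in ribosomal protein genes (the ribosomal-low cells), and they made up 2.89%, 7.08% and 13.4% of the gated cells in H2-O KO replicates 1 to 3, against 33.2%, 15.7% and 37.2% for H2-O WT replicates 1 to 3. They had a median of 1778 UMIs against 4904 in the other, ribosomal-high, cells, 3.62% against 1.95% mitochondrial UMIs and 10.8% against 2.45% UMIs of nuclear-retained RNAs. In the gated cells 7 T cell markers summed to 3186 to 3697 CPM (UMIs per 1000000 UMIs), B cell markers to 3.23 to 4.96 CPM and macrophage markers to 3.23 to 5.78 CPM. Natural killer cell markers summed to 18.45 to 32.6 CPM and CD8 markers to 11.1 to 14.5 CPM. Cells with at least 2 UMIs of B cell, macrophage or CD8 markers, or with no T cell UMI, had been set aside beforehand. The sums of those lists were thus limited by the filter and do not measure purity. Erythroid markers ran from 1.04 to 65.4 CPM in the H2-O KO mice and 0.074 to 1.35 CPM in the H2-O WT mice. They stood at 1545 CPM in the 186 ribosomal-high interferon gate cells of H2-O KO replicate 3. In the ribosomal-high Treg and naive gates of that library they were 0.55 and 0.64 CPM. H2-Oa, a subunit gene of H2-O, stood at 3.07 to 4.27 CPM in gated cells of the H2-O KO mice and 5.14 to 7.63 CPM in those of the H2-O WT mice, and, since the deleted part is not given in the sources used here, its 5′ UMIs do not check the genotype. Between 21 and 99 cell barcodes were shared by any pair of libraries, at most 1.41% of the smaller one.

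Levels were first compared across gates, leaving out the follicular helper gate with its 4 to 27 ribosomal-high cells per library. Among the 5 gates compared, Foxp3, Ikzf2 and Ikzf4 were highest in the Treg gate, Ikzf3 was highest in the NKT and Treg gates and Ikzf1 was lowest in the Treg gate. Ikzf5 was nearly level between the Treg and naive gates and lowest in the interferon gate. In ribosomal-high Treg gate cells the Foxp3 level was 248, 269.9 and 258 CPM for replicates 1 to 3 of H2-O KO, against 257, 304 and 223 CPM for replicates 1 to 3 of H2-O WT. In the naive gate the same libraries gave 8.54, 9.68 and 9.04 CPM and 7.06, 6.96 and 7.21 CPM. No Treg value came near a naive one, and the fitted difference was 27.8-fold (log2 4.80 ± 0.07 SE, edgeR adjusted p = 2.97e-22). Adjusted p-values throughout come from the quasi-likelihood test of edgeR and were adjusted over all genes tested by the Benjamini-Hochberg method. The effector gate followed at 23.9 ± 9.71 CPM (SD, n = 6 libraries), and the interferon, NKT and naive gates, at 9.66 ± 4.60, 8.78 ± 7.42 and 8.08 ± 1.16 CPM, did not differ beyond their spread.

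Ikzf2, which encodes Helios, was also highest in the Treg gate among these 5 and had a different order below it. Its level in the ribosomal-high Treg gate was 345, 373 and 426 CPM in the H2-O KO mice and 471, 366 and 391 CPM in the H2-O WT mice. In the naive gate it was 9.59, 10.3 and 17.5 CPM in the H2-O KO mice and 10.1, 7.30 and 31.6 CPM in the H2-O WT mice, with replicate 3 highest in both genotypes. The Treg gate was 25.8-fold higher (log2 4.69 ± 0.15 SE, edgeR adjusted p = 8.46e-17). The few follicular helper gate cells that were left out stood level with the Treg gate for Ikzf2, at 383 ± 136 CPM against 395 ± 45.95 CPM (SD, n = 6), from 5 to 58 UMIs per library, and were above it in 3 of 6 libraries. Of the other gates, the NKT gate, at 98.3 ± 35.2 CPM, and the effector gate, at 90.9 ± 23.9 CPM (SD, n = 6), came next and did not differ beyond their spread, and both lay above the interferon gate at 17.0 ± 6.36 CPM and the naive gate at 14.4 ± 9.13 CPM.

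Ikzf4, the gene of Eos, stood at 36.8 ± 4.84 CPM in the Treg gate and at 4.50 ± 0.77 CPM (SD, n = 6) in the naive gate, 7.12-fold apart (log2 2.83 ± 0.12 SE, edgeR adjusted p = 7.59e-15). Ikzf3, the gene of Aiolos, was highest in the NKT gate at 163 ± 30.1 CPM, then 112 ± 13.7 CPM in the Treg gate, 89.3 ± 9.47 CPM in the effector gate and 51.7 ± 4.86 CPM in the interferon gate (SD, n = 6), each step larger than its spread. The naive gate, at 50.7 ± 4.38 CPM, did not differ from the interferon gate beyond the spread, and the Treg gate exceeded it by 0.97 ± 0.05 SE on the log2 scale (edgeR adjusted p = 1.36e-12). Ikzf1, the gene of Ikaros, ran the other way. Its 332 ± 20.2 CPM in the naive gate and 332 ± 28.8 CPM in the interferon gate did not differ beyond their spread, and it was 286 ± 28.5 CPM in the effector gate and 224 ± 17.9 CPM (SD, n = 6) in the Treg gate. Its Treg level was 0.594 times the naive level (log2 -0.75 ± 0.04 SE, edgeR adjusted p = 3.79e-12). Ikzf5 was 20.8 ± 4.17 CPM in the Treg gate and 18.8 ± 1.08 CPM in the naive gate (log2 0.06 ± 0.10 SE, edgeR adjusted p = 0.661). It was highest in the effector gate, at 23.6 ± 3.22 CPM, and lowest in the interferon gate, at 14.7 ± 4.47 CPM (SD, n = 6). The naive gate lay above the interferon gate beyond their spread, in 5 of 6 libraries.

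Against the naive gate, 4 of the 6 genes rose and 1 fell in the Treg gate, where 49.5% of 10245 genes tested were called (26.1% higher and 23.4% lower). The median log2 difference was 1.90 over the 6 genes and 0.00 over all genes. In the effector gate 3 of the 6 rose and 1 fell, with 44.6% of 9715 genes called (23.1% higher and 21.5% lower). Ikzf2 rose there by 2.57 ± 0.12 SE on the log2 scale (edgeR adjusted p = 2.40e-20), Foxp3 by 1.32 ± 0.16 SE (adjusted p = 6.15e-09) and Ikzf3 by 0.67 ± 0.06 SE (adjusted p = 6.39e-12). Ikzf1 fell by 0.40 on the log2 scale (± 0.04 SE, adjusted p = 1.21e-10). Ikzf4 (0.26 ± 0.23 SE, adjusted p = 0.36) and Ikzf5 (0.14 ± 0.11 SE, adjusted p = 0.316) did not pass the test, but Ikzf4 passed where the Treg gate asked for 3 marker genes (0.53, adjusted p = 0.0167) and with gates read at 1500 UMIs (0.60, adjusted p = 0.0193).

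**Figure D1:**
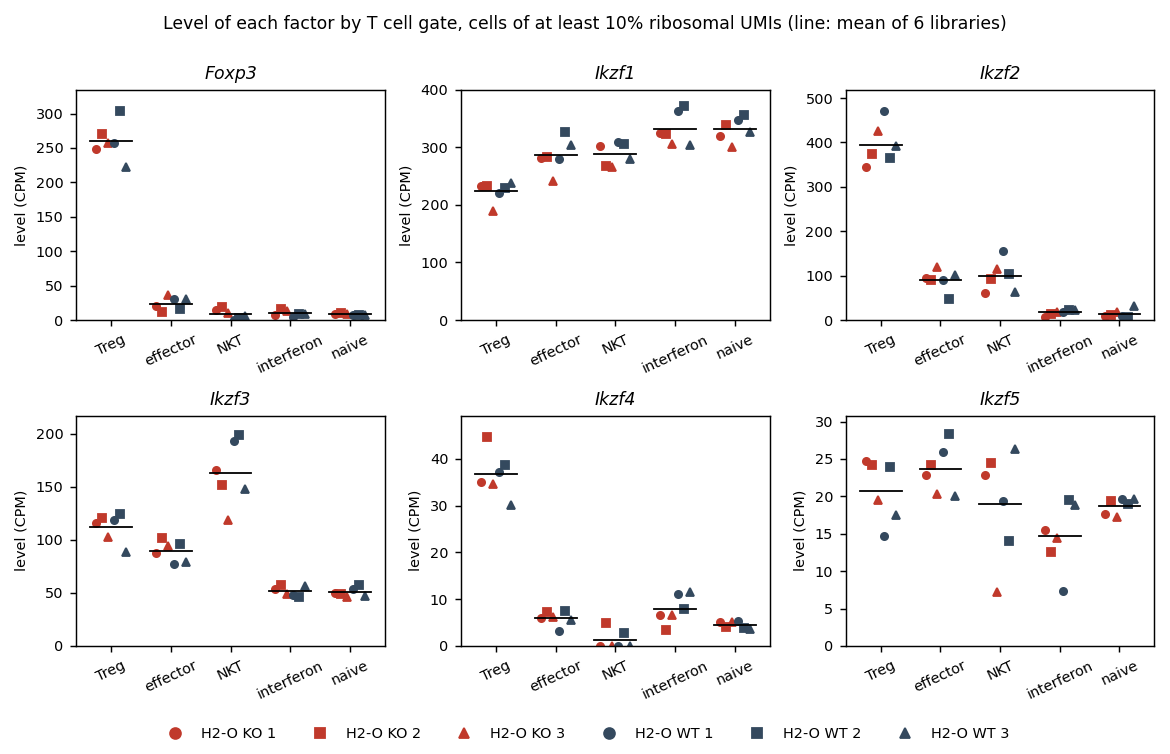
Level of each of the 6 genes (CPM, UMIs per 1000000 UMIs of the gate) in 5 gates of ribosomal-high cells, without the follicular helper gate, 1 panel per gene with its own axis, with a point for each library and a bar at the mean of the 6 libraries. Of the gates plotted, the Treg gate is highest for Foxp3, Ikzf2 and Ikzf4 and lowest for Ikzf1, and the NKT gate is highest for Ikzf3.

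The next comparison asked whether loss of H2-O changed these genes. Summed over all gated T cells, 3 of the 6 genes were called, against 29% of 12179 genes tested (12.8% higher and 16.3% lower) (edgeR's quasi-likelihood test). Foxp3 stood at 47.5, 56.4 and 59.1 CPM in the H2-O KO mice and 49.0, 43.1 and 48.4 CPM in the H2-O WT mice. The groups overlapped through H2-O KO replicate 1, and the difference was 0.26 ± 0.09 SE on the log2 scale (edgeR adjusted p = 0.0469). It missed the threshold without H2-O KO replicate 2 (0.24) or 3 (0.20), or without H2-O WT replicate 1 (0.28), 2 (0.25) or 3 (0.30), where the adjusted p ran up to 0.132, with at least 2000 UMIs per cell (0.21, adjusted p = 0.143) and with gates read at 1500 UMIs per cell (0.20, adjusted p = 0.163). In such sums, more Foxp3-expressing cells and more Foxp3 RNA per cell cannot be told apart.

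Ikzf1 stood at 308, 326 and 302 CPM in the H2-O KO mice and 385, 371 and 399 CPM in the H2-O WT mice. Every H2-O KO library lay below every H2-O WT library, and Ikzf1 fell by 0.26 on the log2 scale (± 0.06 SE, edgeR adjusted p = 0.0106; 0.0637 without H2-O KO replicate 1, at the same difference of -0.26). Ribosomal-low cells, in which Ikzf1 was higher, were a larger share of the cells in every H2-O WT library than in any H2-O KO library. The part of that share in the fall of Ikzf1 was not tested. Within ribosomal-low cells of all gates the Ikzf1 difference was -0.27 ± 0.13 SE on the log2 scale and did not pass (edgeR adjusted p = 0.164). Over ribosomal-high cells alone Ikzf1 was 302, 314 and 273 CPM in the H2-O KO mice and 319.9, 340.1 and 304 CPM in the H2-O WT mice, the groups overlapped, and the difference of -0.13 ± 0.07 SE did not pass (adjusted p = 0.282). Ikzf3 stood at 66.4, 72.1 and 69.9 CPM in the H2-O KO mice and 79.2, 78.5 and 83.8 CPM in the H2-O WT mice. Its difference of -0.17 ± 0.06 SE passed narrowly (adjusted p = 0.0475) and did not pass with any 1 library left out, where it ran from -0.19 to -0.13: -0.14, -0.19 and -0.17 without H2-O KO replicates 1 to 3 and -0.19, -0.14 and -0.13 without H2-O WT replicates 1 to 3. It also missed the threshold under 7 other settings, among them DESeq2 (-0.16, adjusted p = 0.106) and at least 2000 UMIs per cell (-0.09, adjusted p = 0.295). Ikzf2 spanned 74.1 to 120.4 CPM in the H2-O KO mice and 64.5 to 139 CPM in the H2-O WT mice (log2 -0.15 ± 0.25 SE, adjusted p = 0.705). Ikzf4 (0.14 ± 0.11 SE, adjusted p = 0.373) and Ikzf5 (-0.13 ± 0.09 SE, adjusted p = 0.301) did not pass either.

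Among ribosomal-high cells of all gates, none of the 6 genes was called and none had an unadjusted p under 0.05 (edgeR), where 6.89% of 12017 genes were called. Foxp3 was 47.1, 55.1 and 58.2 CPM in the H2-O KO mice and 47.0, 42.4 and 51.9 CPM in the H2-O WT mice (log2 0.18 ± 0.10 SE, edgeR adjusted p = 0.306). Inside the ribosomal-high Treg gate none of the 6 was called by edgeR and 0 had an unadjusted p under 0.05, as 0.277% of 9751 genes were called there. Differences (H2-O KO against H2-O WT, log2) were -0.01 ± 0.12 SE for Foxp3 (adjusted p = 0.992), -0.08 ± 0.11 SE for Ikzf2 (0.802), -0.07 ± 0.11 SE for Ikzf1 (0.850), 0.05 ± 0.13 SE for Ikzf3 (0.922), 0.11 ± 0.16 SE for Ikzf4 (0.829) and 0.23 ± 0.20 SE for Ikzf5 (0.693). The levels of Foxp3 and Ikzf2 given above for this gate overlapped between the genotypes. The Treg gate took 15.1%, 17.0% and 15.9% of the ribosomal-high gated cells in the H2-O KO mice and 14.6%, 11.7% and 17.8% in the H2-O WT mice, which also overlapped.

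In ribosomal-low cells of all gates Foxp3 stood at 88.7, 100.5 and 71.6 CPM in the H2-O KO mice and at 61.9, 54.8 and 33.1 CPM in the H2-O WT mice. The lowest of the H2-O KO libraries lay above the highest of the H2-O WT libraries, and Foxp3 rose by 0.72 ± 0.21 SE on the log2 scale (edgeR adjusted p = 0.0269). It was the only one of the 6 called there, where 13.8% of 8719 genes were called and 7.2% were higher. The call was lost without H2-O KO replicate 1 (0.71), 2 (0.62) or 3 (0.84) or H2-O WT replicate 3 (0.46), and with DESeq2 (0.70) or gates read at 1500 UMIs (0.77, adjusted p = 0.0666). Counted as cells at equal depth, each thinned to 1500 UMIs, the share of ribosomal-low cells with a Foxp3 UMI overlapped between genotypes. That share was 6.43%, 6.84% and 5.93% in the H2-O KO mice and 7.44%, 6.43% and 3.84% in the H2-O WT mice. The Treg gate took 13.9%, 17.2% and 12.4% of these cells in H2-O KO mice and 10.2%, 12.3% and 9.15% in H2-O WT mice. The groups were nearly tied, at 12.41% (88 cells) in H2-O KO replicate 3 and 12.32% (78 cells) in H2-O WT replicate 2. RNA quality in ribosomal-low cells moved with genotype too. In the Treg gate the median mitochondrial share was 3.02%, 2.95% and 2.87% in the H2-O KO mice and 3.50%, 3.85% and 3.83% in the H2-O WT mice, without overlap, and that of nuclear-retained RNAs was 2.95%, 3.76% and 9.19% against 11.4%, 7.39% and 13.5%. In the naive gate these shares ran from 3.19% to 3.78% and 4.12% to 11.2% in the H2-O KO mice, against 3.76% to 3.78% and 7.32% to 14.2% in the H2-O WT mice. Their part in the genotype differences of ribosomal-low cells was not tested. Within the ribosomal-low Treg gate, which held 29 to 119 cells per library, Foxp3 was 421, 409 and 234 CPM in the H2-O KO mice and 315, 242 and 171 CPM in the H2-O WT mice, the groups overlapped, and the difference of 0.48 ± 0.27 SE did not pass (adjusted p = 0.315).

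Ikzf2 in the ribosomal-low Treg gate stood at 1668, 1458 and 1291 CPM in the H2-O KO mice and at 1250, 949 and 1130.0 CPM in the H2-O WT mice. The genotypes did not overlap, though they did with gates read at 1500 UMIs (1587, 1688 and 1113 CPM against 1378, 1066 and 1319 CPM), and the difference of 0.34 ± 0.21 SE on the log2 scale did not pass over all genes tested (edgeR adjusted p = 0.368), where 3.26% of 3308 genes were called. Ikzf1 (-0.27 ± 0.23 SE, adjusted p = 0.552) and Ikzf3 (0.07 ± 0.25 SE, adjusted p = 0.906) did not pass, and Ikzf4 and Ikzf5 had too few UMIs to be tested, so that 4 of the 6 genes were tested and none was called by edgeR, with 0 at an unadjusted p under 0.05. Over ribosomal-low cells of all gates Ikzf2 was 365, 356 and 309 CPM in the H2-O KO mice and 309, 219 and 257 CPM in the H2-O WT mice (log2 0.26 ± 0.14 SE, adjusted p = 0.237). With the ribosomal limit at 15% in place of 10% this difference was 0.49 and passed (adjusted p = 0.0488). Whether the genotype difference itself differed between ribosomal-low and ribosomal-high Treg gate cells was tested too. The edgeR test did not pass for Foxp3 (0.35 ± 0.27 SE, adjusted p = 0.763) or Ikzf2 (0.31 ± 0.24 SE, adjusted p = 0.763), and 0.148% of 8135 genes were called for it. It does not show that the difference was the same in both.

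**Figure D2:**
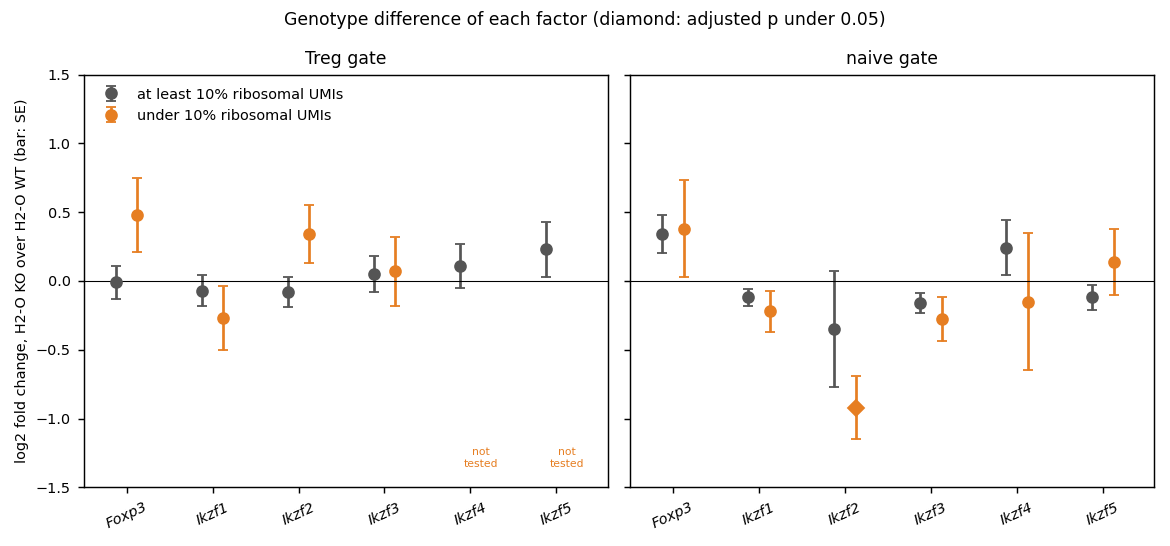
Difference of the H2-O KO from the H2-O WT libraries in each of the 6 genes (log2 fold change, edgeR, bars of 1 standard error), with the Treg gate on the left, the naive gate on the right, ribosomal-high cells in grey, ribosomal-low cells in orange, and a diamond where the adjusted p is under 0.05. Points inside the ribosomal-high Treg gate lie between -0.08 and 0.23, Ikzf2 in the ribosomal-low naive gate is the diamond at -0.92, and Ikzf4 and Ikzf5 were not tested in the ribosomal-low Treg gate.

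The naive gate gave a different picture for Ikzf2. In ribosomal-low naive gate cells it stood at 52.7, 40.8 and 68.4 CPM in the H2-O KO mice, from 13, 14 and 64 UMIs, and at 107, 80.0 and 117 CPM in the H2-O WT mice, from 77, 74 and 221 UMIs. All H2-O KO values lay below all H2-O WT values, and Ikzf2 fell by 0.92 on the log2 scale (± 0.23 SE, edgeR adjusted p = 0.0259), where 5.75% of 7946 genes were called and 2.48% were lower. The call did not hold without H2-O KO replicate 1 (-0.87) or 2 (-0.75) or H2-O WT replicate 1 (-0.89) or 3 (-0.70), nor at a mitochondrial limit of 10% (-0.69, adjusted p = 0.208) or with a Treg gate of 3 genes (-0.46, adjusted p = 0.0960), and it turned to 0.12 (adjusted p = 0.872) when every cell was read at 1500 UMIs before it was gated. With gates read in that way, the levels were 43.5, 59.2 and 158 CPM in the H2-O KO mice and 92.2, 54.0 and 120 CPM in the H2-O WT mice and overlapped. The genotype difference of Ikzf2 in the ribosomal-low Treg gate less that in the naive gate, a test added after these values were seen, was 1.18 ± 0.24 SE (adjusted p = 0.0437, with 0.034% of 5887 genes called, all higher) and -0.01 with gates read at 1500 UMIs. Foxp3 in the same naive cells was 16.2, 17.5 and 35.3 CPM in the H2-O KO mice and 18.1, 24.9 and 17.0 CPM in the H2-O WT mice (log2 0.38 ± 0.35 SE, adjusted p = 0.559; -0.37 without H2-O KO replicate 3).

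In ribosomal-high naive cells none of the 6 genes was called by edgeR, and 3 had an unadjusted p under 0.05, where 15.7% of 11032 genes were called. Foxp3, at the levels given above, was higher in every H2-O KO library than in any H2-O WT library, by 0.34 ± 0.14 SE on the log2 scale (adjusted p = 0.109; 0.47 and 0.0153 where the Treg gate asked for 3 marker genes). Ikzf1 was 319, 339 and 301 CPM in the H2-O KO mice and 347, 357 and 326 CPM in the H2-O WT mice (-0.12 ± 0.06 SE, adjusted p = 0.156). Ikzf3 was 46.1 to 49.9 CPM in the H2-O KO mice and 47.5 to 57.8 CPM in the H2-O WT mice (-0.16 ± 0.07 SE, adjusted p = 0.142; -0.22 and 0.0477 without H2-O WT replicate 3). Ikzf2, at -0.35 ± 0.42 SE (adjusted p = 0.622), changed to 0.60 without H2-O WT replicate 3, its highest library. In the ribosomal-high effector gate, where 0.952% of 8721 genes were called, edgeR called none of the 5 genes tested and 1 had an unadjusted p under 0.05. Ikzf2 there was 95.1, 90.4 and 120.3 CPM in the H2-O KO mice and 90.6, 47.6 and 101 CPM in the H2-O WT mice (0.36 ± 0.19 SE, adjusted p = 0.437), and Ikzf1 was 281, 283 and 242 CPM against 279.9, 327 and 304 CPM (-0.21 ± 0.09 SE, adjusted p = 0.322). Ikzf4 had too few UMIs there to be tested.

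**Figure D3:**
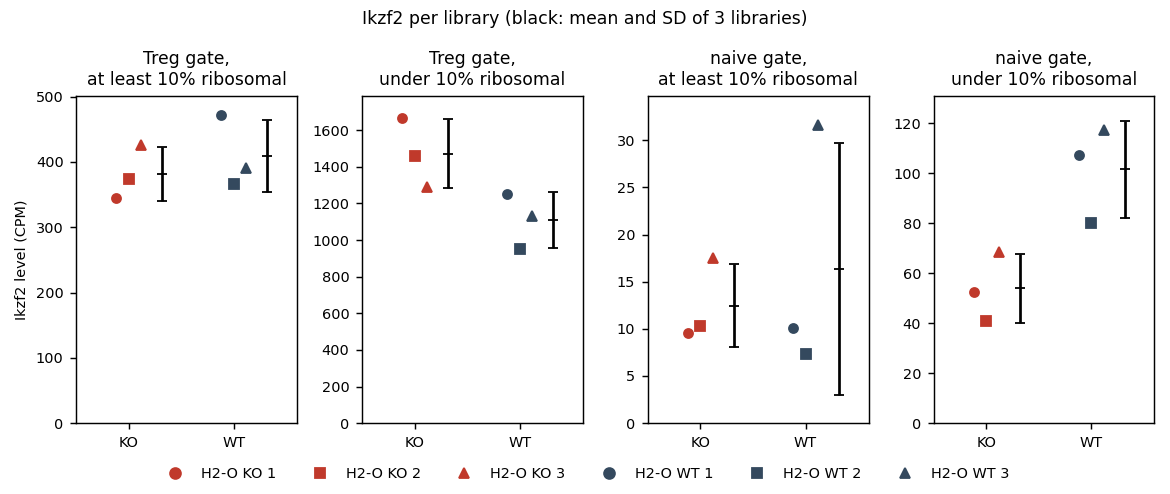
Ikzf2 level (CPM) in each library by genotype in the Treg and naive gates of ribosomal-high and ribosomal-low cells, 1 point per library with the mean and SD of each genotype in black, each panel with its own axis from 0. In ribosomal-low cells the H2-O KO points lie above the H2-O WT points in the Treg gate and below them in the naive gate.

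Ribosomal-low cells were then set against ribosomal-high cells of the same gate and library. In the Treg gate Ikzf2, Ikzf3 and Ikzf1 rose, Foxp3 fell, and Ikzf4 and Ikzf5 did not pass, where 57.3% of 7000 genes were called, 29.3% higher and 28% lower. In the naive gate all 6 rose, where 74% of 9530 genes were called and 37.7% were higher. The median log2 difference over the 6 genes was 0.51 in the Treg gate and 0.78 in the naive gate, against 0.03 over all genes in each. These strata also differed in depth, mitochondrial and nuclear-retained UMIs as given above, and the part of those in the differences was not tested.

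For Ikzf2 the ribosomal-low to ribosomal-high ratio of CPM within the Treg gate ran from 2.60 to 4.83 over the 6 libraries, with a median of 2.96. The total behind CPM holds ribosomal protein UMIs, which are scarcer in ribosomal-low cells. With ribosomal and mitochondrial UMIs left out of the total, the median ratios were 2.46 for Ikzf2, 2.11 for Ikzf3 and 1.64 for Ikzf1. The fitted rise of Ikzf2 was 1.21 ± 0.14 SE on the log2 scale (edgeR adjusted p = 9.99e-09). Ikzf3 had a median ratio of 2.65 (log2 0.90 ± 0.14 SE, adjusted p = 2.05e-06) and Ikzf1 of 1.97 (log2 0.55 ± 0.14 SE, adjusted p = 0.000838), and both were above 1 in 6 of 6 libraries. The call of Ikzf1 was lost at a ribosomal limit of 15% (0.11) and without the filter on low counts (0.34). Foxp3 had a median ratio of 1.07 (0.87 without ribosomal and mitochondrial UMIs in the total), was above 1 in 3 of 6 libraries, and ran from 0.77 to 1.70. Its fitted difference was -0.37 ± 0.15 SE (adjusted p = 0.0378), and it was -0.21 (adjusted p = 0.265) with library sizes that leave out ribosomal and mitochondrial UMIs and 0.13 (adjusted p = 0.483) with total UMIs, scales that moved the median of all genes to 0.18 and 0.52. The Foxp3 call was also lost without H2-O KO replicate 3 (-0.31), H2-O WT replicate 2 (-0.27) or H2-O WT replicate 3 (-0.34), at a ribosomal limit of 15%, where the difference was -0.01 (adjusted p = 0.971), with at least 2000 UMIs per cell (-0.38, adjusted p = 0.0862) and with a Treg gate of 3 genes (-0.50, adjusted p = 0.0502).

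In the naive gate the ratios for Ikzf2 ran from 3.71 to 10.96 with a median of 4.73 (log2 1.76 ± 0.18 SE, edgeR adjusted p = 1.48e-09), and those for Ikzf1 from 2.24 to 2.81. The rises of the other genes were 0.85 ± 0.09 SE for Ikzf3, 0.77 ± 0.13 SE for Ikzf5, 0.73 ± 0.28 SE for Ikzf4 and 0.65 ± 0.09 SE for Ikzf1 on the log2 scale. Ikzf4 did not pass without H2-O WT replicate 2 (0.50) or 3 (0.55), with DESeq2 (0.57), without the filter on low counts (0.56), with at least 2000 UMIs per cell (0.64) or with gates read at 1500 UMIs (0.26). Foxp3 rose by 0.79 ± 0.20 SE (adjusted p = 0.000809), which did not pass with at least 2000 UMIs per cell (0.33, adjusted p = 0.387), and its direction depended on how cells were gated. With every cell read at 1500 UMIs before gating, Foxp3 fell by 0.78 on the log2 scale between the same strata (adjusted p = 0.00101). Ikzf2 gated so stayed higher in ribosomal-low cells, at 43.5, 59.2 and 158 CPM against 21.1, 22.3 and 33.8 CPM in the H2-O KO mice. In the H2-O WT mice it was 92.2, 54.0 and 120 CPM against 29.1, 18.3 and 45.0 CPM. The highest ratios as reported, 10.64 and 10.96, were those of H2-O WT replicates 1 and 2, and their size depended on the gating. With library sizes without ribosomal and mitochondrial UMIs the median of all genes moved to 0.26 and with total UMIs to 0.75. The median ratio of Ikzf2 in the naive gate was 3.36 (2.73 to 7.78) with ribosomal and mitochondrial UMIs left out of the total.

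**Figure D4:**
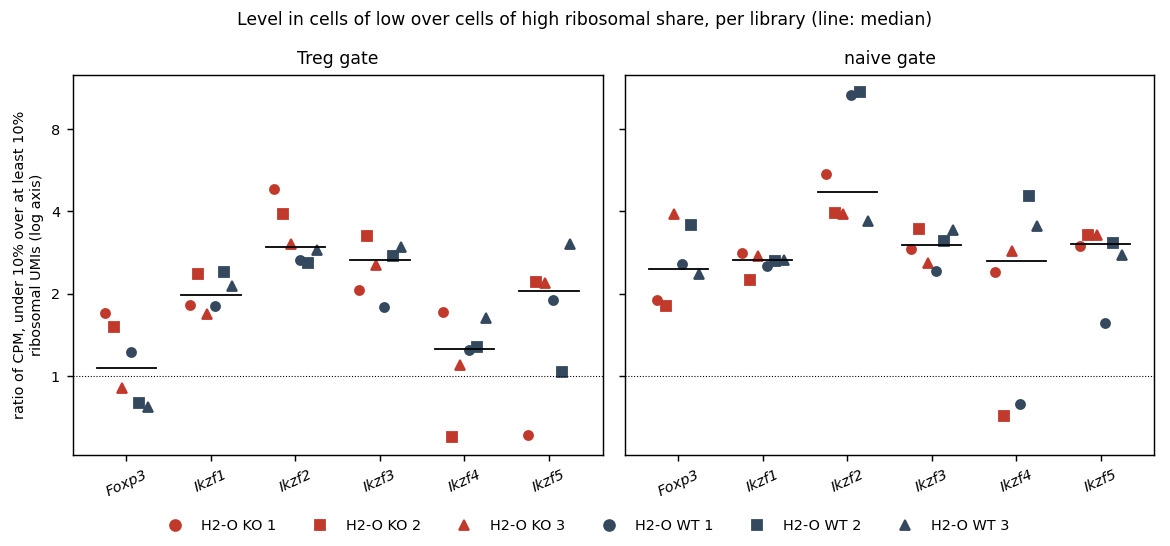
Ratio of the level (CPM) in ribosomal-low cells to that in ribosomal-high cells of the same library for the 6 genes (log axis), in the Treg and naive gates, 1 point per library, a solid line at the median of the 6 libraries and a dotted line at 1. Ikzf2 lies between 2.60 and 4.83 in the Treg gate while Foxp3 lies on both sides of 1. The dotted line is not the middle of all genes. With total UMIs the median log2 difference of all genes tested was 0.52 in the Treg gate and 0.75 in the naive gate.

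To compare Foxp3 and Ikzf2 cell by cell, 23743 gated cells with at least 1500 UMIs were each thinned to 1500 UMIs, so that 650 shallower cells of the H2-O KO mice and 895 of the H2-O WT mice were not used. A cell with a UMI of a gene after thinning is called positive here. Foxp3+ cells made up 28.6% ± 3.60 (SD, n = 6) of ribosomal-high Treg gate cells and 1.09% ± 0.354 of ribosomal-high naive gate cells, and for Ikzf2 the shares were 35.9% ± 5.04 and 1.77% ± 0.952. The naive shares serve as the background, which free RNA and Tregs without a marker UMI could both add to. Of 1474 Foxp3+ cells among all kept cells, 1044 (70.8%) were in the Treg gate, as were 516 (77.8%) of 663 Foxp3+ Ikzf2+ cells and 823 (47.9%) of 1719 Foxp3- Ikzf2+ cells. A further 321 (18.7%) of the Foxp3- Ikzf2+ cells were in the naive gate and 263 (15.3%) in the effector gate.

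Foxp3+ cells were 5.91%, 6.33% and 6.39% of gated T cells in the H2-O KO mice and 5.55%, 5.13% and 4.64% in the H2-O WT mice. Every H2-O KO library was above every H2-O WT library, a difference of 1.105 percentage points, which gave the smallest p that 3 against 3 libraries allow (exact permutation test, two-sided, p = 0.1). At 3000 UMIs per cell the means were 8.13% and 7.28% and the groups overlapped (exact permutation test, p = 0.4). They overlapped at 1000 UMIs outside ribosomal protein and mitochondrial genes too (5.61% and 4.60%, exact permutation test, p = 0.2). They did not overlap with T cells in no gate included (6.16% and 4.985%, exact permutation test, p = 0.1). Nor did they with no thinning (10.4% and 8.13%, exact permutation test, p = 0.1), at the unequal depths of the libraries. Ikzf2+ cells were 7.22%, 8.07% and 10.5% in the H2-O KO mice and 10.6%, 6.42% and 13.3% in the H2-O WT mice (exact permutation test, p = 0.6). The difference of -1.52 percentage points became 0.0766 once H2-O WT replicate 3 was left out.

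Cells positive for both Foxp3 and Ikzf2 were 2.44%, 2.79% and 2.85% of gated T cells in the H2-O KO mice and 3.02%, 2.05% and 2.22% in the H2-O WT mice. The groups overlapped, and their difference of 0.264 percentage points was below the pooled SD of 0.398 (exact permutation test, two-sided, p = 0.5). Counted at full depth, the double-positive shares were 6.71% ± 0.788 in the H2-O KO mice and 4.90% ± 0.0579 (SD, n = 3) in the H2-O WT mice and did not overlap (exact permutation test, p = 0.1), at the unequal depths of the libraries. Foxp3- Ikzf2+ cells were 5.90% ± 1.52 and 7.68% ± 3.35 (SD, n = 3; exact permutation test, p = 0.7), with the highest share, 11.1%, in H2-O WT replicate 3.

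Of the Foxp3+ cells, 41.4%, 44.0% and 44.6% had an Ikzf2 UMI in the H2-O KO mice and 54.4%, 39.9% and 47.9% in the H2-O WT mice. The difference of -4.08 percentage points did not exceed the pooled SD of 5.28 (exact permutation test, two-sided, p = 0.5), and its sign changed with the depth to which cells were thinned. Of the Ikzf2+ cells, 31.9% ± 4.05 had a Foxp3 UMI in the H2-O KO mice and 25.7% ± 7.95 (SD, n = 3) in the H2-O WT mice (exact permutation test, p = 0.3). In every library Foxp3 and Ikzf2 were found together in 3.60 to 6.21 times as many gated cells as the product of their shares gives.

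Among ribosomal-low Foxp3+ cells, 60.5% had an Ikzf2 UMI on average, against 44.2% among ribosomal-high Foxp3+ cells of the same libraries. The share was higher in ribosomal-low cells of 5 of 6 libraries, by 16.3 percentage points on average (exact sign-flip permutation test, two-sided, p = 0.125, where the smallest possible is 0.03125), and H2-O WT replicate 3 was the exception with -15.1, and with no thinning the difference was 1.83 (exact p = 0.844). The ribosomal-low shares rest on 9 to 38 Foxp3+ cells per library. By genotype, 68.0% ± 11.1 of these cells were Ikzf2+ in the H2-O KO mice and 53.0% ± 14.7 (SD, n = 3) in the H2-O WT mice (exact permutation test, p = 0.3).

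**Figure D5:**
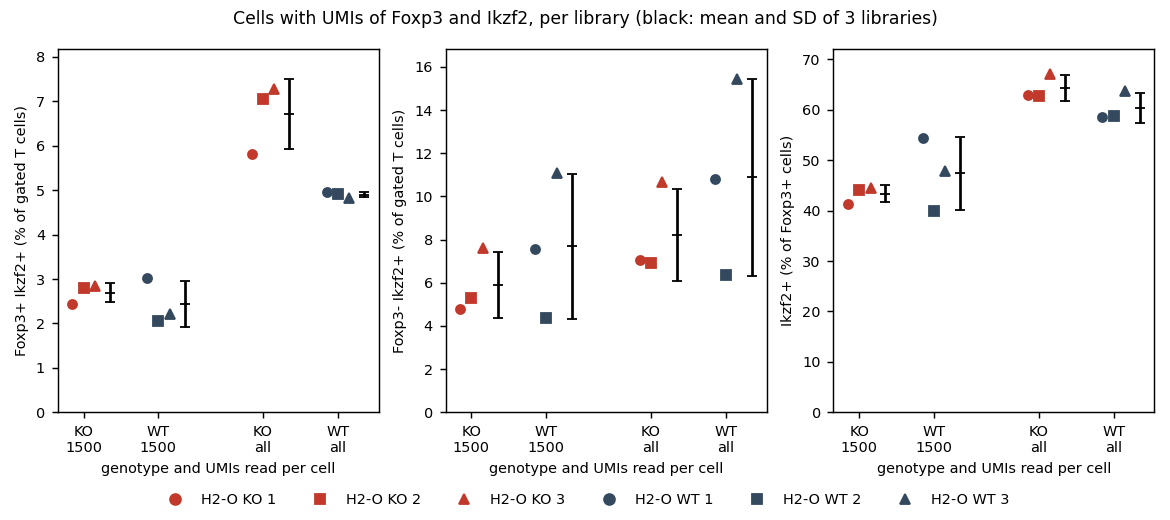
Percent of gated T cells positive for both Foxp3 and Ikzf2 (left), percent positive for Ikzf2 alone of these 2 genes (middle) and percent of Foxp3+ cells that were Ikzf2+ (right), by genotype, thinned to 1500 UMIs per cell or with all UMIs read, with 1 point per library and the mean and SD of each genotype in black. The double-positive shares overlap between genotypes at 1500 UMIs and not with all UMIs, where the means are 6.71% and 4.90%.

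Inside the ribosomal-high Treg gate, cells with a Foxp3 UMI carried an Ikzf2 UMI in 49.6% ± 7.85 and those without one in 30.6% ± 5.16 (SD, n = 6), higher in 6 of 6 libraries. That share was 48.6% ± 6.56, 49.7% ± 13.7 and 49.5% ± 10.0 (SD) with 1, 2 and 3 or more Foxp3 UMIs, the last from as few as 5 cells per library. In ribosomal-low cells of the gate it was 58.4% ± 8.40, 72.5% ± 19.9 and 84.4% ± 18.2 (SD) with 0, 1 and 2 Foxp3 UMIs, the last from as few as 1 cell. Whether the Ikzf2+ share climbs with more Foxp3 is thus not settled. In the ribosomal-high Treg gate, Ikzf3 (19.3% against 14.1%) and Ikzf4 (9.02% against 4.37%) were also found more often with Foxp3 in 6 of 6 libraries. Ikzf1 was found less often, in 21.9% against 28.7%, in each of the 6. Ikzf5, at 4.10% and 3.02%, was higher in 4 of 6.

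Genes known to act with these factors were counted from 5 lists. Of 21 partners and regulators of Foxp3, 10 rose and 7 fell in the Treg gate against the naive gate, where 26.1% of all genes tested were higher and 23.4% lower, with a median log2 difference of 0.07. Nfatc1, a calcium-driven factor that binds DNA with Foxp3, rose from 77.0 to 248 CPM (log2 1.45 ± 0.07 SE, edgeR adjusted p = 4.29e-13) and Gata3, a further Foxp3 partner, from 43.3 to 104 CPM (1.06 ± 0.05 SE, adjusted p = 3.47e-13). Satb1, a chromatin organiser that Foxp3 is known to repress, fell from 488 to 210.3 CPM (-1.39 ± 0.08 SE, adjusted p = 1.39e-12), and Bach2, a repressor of effector genes, from 162 to 101 CPM (-0.84 ± 0.08 SE, adjusted p = 1.18e-08). These changes were not particular to the Treg gate. The effector gate stood at 191.5 CPM for Nfatc1, 98.2 CPM for Gata3, 175 CPM for Satb1 and 83.1 CPM for Bach2. Against the naive gate, 8 of the 21 rose and 9 fell there, where 23.1% of all genes were higher and 21.5% lower. Of 12 genes that Foxp3 is known to raise, all 12 rose in the Treg gate, and so did all 9 that no gate had used. Il10, an inhibitory cytokine, stood at 25.7 CPM in the Treg gate and 0.0973 CPM in the naive gate, and Ebi3, a subunit of interleukin 35, at 26.2 and 0.179 CPM. Of 7 genes that Foxp3 is known to lower, 6 were tested, 3 fell and 3 rose. Pde3b, a cyclic nucleotide phosphodiesterase, fell by 1.83 on the log2 scale (± 0.06 SE, adjusted p = 1.27e-16), while the cytokine genes Ifng (48.0 against 0.711 CPM) and Il2 (7.02 against 0.465 CPM) were among those that rose. In the effector gate Ifng and Il2 were higher still, at 96.5 and 23.7 CPM. Pde3b was 74.3 CPM there, between 44.6 CPM in the Treg gate and 142 CPM in the naive gate. Il10 and Ebi3 were lower there than in the Treg gate, at 4.40 and 3.39 CPM. Of 7 Foxp3-raised genes tested in the effector gate against the naive gate, 5 rose and 1 fell.

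Of 18 subunits of the corepressor and remodelling complexes that Ikaros factors recruit, 17 were tested, 2 rose and 4 fell in the Treg gate, where 49.5% of all genes were called, all by 0.30 or less on the log2 scale for those named here: Gatad2a (0.29 ± 0.05 SE) and the deacetylase Hdac1 (0.24 ± 0.05 SE) rose, and the deacetylase Hdac2 (-0.30 ± 0.06 SE) and Ctbp1 (-0.24 ± 0.05 SE) fell. Of the 5 genes of the CRL4-CRBN ubiquitin ligase, through which thalidomide-like drugs degrade Ikaros and Aiolos, Crbn (0.22 ± 0.05 SE) and Ddb1 (0.14 ± 0.06 SE) rose. The median was 0.00 over the corepressor genes and 0.14 over the ligase genes.

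Between genotypes the ribosomal-high Treg gate gave 0 called genes in each of the 5 lists (edgeR), as it did for the 6 factors. In the ribosomal-low Treg gate, where 3.26% of all genes were called, 2 of 20 tested partners and regulators fell in the H2-O KO mice, Tet2, an enzyme that removes DNA methylation, at Foxp3 among other genes (-1.28 ± 0.32 SE, adjusted p = 0.0336), and Satb1 (-1.0 ± 0.27 SE, adjusted p = 0.0423), and 1 of 5 tested Foxp3-raised genes rose, the actin-capping gene Capg (1.20 ± 0.32 SE, adjusted p = 0.0434). Of 3 tested Foxp3-lowered genes 1 fell. Over the 6 libraries Tet2 had 113 UMIs in this gate, Satb1 565 and Capg 100. With 1 library left out, the genes called in this comparison numbered 8 to 104. Over all gated cells 13 of the 21 partners and regulators fell, 1 rose, and their median was -0.31, where 16.3% of all genes were lower and 12.8% higher and the median was 0.01. Ribosomal-low cells were a larger share of the cells in every H2-O WT library than in any H2-O KO library. In them 14 of these 21 genes were higher in the Treg gate (29.3% of all genes) and 16 in the naive gate (37.7% of all genes). The part of that share in the fall was not tested. Among ribosomal-high gated cells, where 6.89% of all genes were called, 5 fell and 1 rose, with Tet2 at -0.41 ± 0.09 SE (adjusted p = 0.0384), Nfatc2 at -0.41 ± 0.10 SE (adjusted p = 0.0419) and Nr4a1, a gene induced by T cell receptor signalling, at 0.43 ± 0.11 SE (adjusted p = 0.0489). Of the Foxp3-raised genes 1 of 12 rose there, the Treg receptor gene Gpr83 (0.68 ± 0.13 SE, adjusted p = 0.0259), and 1 of 17 corepressor genes fell, the remodeller Chd4 (-0.29 ± 0.07 SE, adjusted p = 0.0440).

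In ribosomal-low against ribosomal-high Treg gate cells 14 of the 21 partners and regulators rose and 2 fell, with a median of 0.63, where 29.3% of all genes were higher and 28% lower and the median was 0.03. Bach2 (1.66 ± 0.16 SE, edgeR adjusted p = 9.00e-11) and Nr4a3 (1.34 ± 0.13 SE, adjusted p = 1.83e-10) rose, and Nr4a1 (-0.55 ± 0.15 SE, adjusted p = 0.00197) and Gata3 (-0.49 ± 0.18 SE, adjusted p = 0.0182) fell. The mean CPM of Nr4a1 and Gata3 was nearly level, at 283.7 against 298.5 and 105.6 against 103.7. Their fall thus depends on the scaling, since with total UMIs the median of all genes was 0.52. The Foxp3-raised genes split, with 4 of 11 tested higher and 3 lower. Of the 8 tested that no gate had used, 2 were higher and 2 lower. Il2ra, a gene of the gate (1.38 ± 0.15 SE), and Nt5e, which encodes CD73 (1.27 ± 0.15 SE), rose, while Capg (-1.74 ± 0.20 SE) and Ebi3 (-1.53 ± 0.48 SE) fell. Ebi3 had only 11 UMIs in ribosomal-low Treg gate cells over the 6 libraries. Its CPM was higher in ribosomal-low cells in H2-O KO replicates 1 (60.1 against 22.3) and 2 (26.7 against 16.4) and lower in the other libraries. Of 17 corepressor genes 3 rose and 7 fell, among them Smarca4 (0.49 ± 0.15 SE) and Mbd3 (-1.41 ± 0.24 SE).

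The genes whose levels ran most like each factor were ranked over 50 sums of gate, stratum and library, each centred within its library, among 9515 genes. For Foxp3 these were Ptger2 (Pearson r = 0.878), Tiam1 (0.874), Cd83 (0.860), Cybb (0.855) and Itgb8 (0.854). For Ikzf2 they were Nt5e (0.957), Eea1 (0.950), Tnfrsf1b (0.935), Nrp1 (0.927) and Itgav (0.924). Nrp1, a surface protein used like Helios to mark thymic Tregs, stood at 115 CPM in the ribosomal-high Treg gate and 3.83 CPM in the naive gate. It was also well above the naive gate in the ribosomal-high effector gate, at 74.2 CPM. Among the 6 factors, Ikzf2 ran with Ikzf3 at r = 0.811 and with Foxp3 at 0.723, Foxp3 ran with Ikzf4 at 0.561, and Foxp3 and Ikzf1 had r = -0.176. These sums share libraries and depth, so the values are a description.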

How the data were processed

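Cells were sorted from spleen, 1 library per mouse, with the 10x Genomics 5′ kit v1.1. The deposited values are UMI counts per gene and called cell, which the authors made with Cell Ranger 6.1.2 on mm10 according to the submitters' processing notes. As in the study's methods, cells with fewer than 200 genes, more than 12000 UMIs or over 5% mitochondrial UMIs were left out. Cells with no T cell UMI, or with at least 2 UMIs of B cell, macrophage or CD8 markers, were set aside. Some of the marker genes used are not reported here. Gates were taken in the order NKT, Treg, follicular helper, effector, interferon and naive. No doublet caller was run, and whether doublets had been removed is not given in the sources used here. The 6 genes, gates, lists and tests were chosen with earlier results of these data known. The named genes were the 6 factors, H2-Oa, up to 2 called genes of each list in each direction and comparison, and the 5 genes most like Foxp3 and like Ikzf2.

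UMI counts were summed per library, gate and stratum and tested with edgeR 4.0.16 (TMM, filterByExpr, quasi-likelihood test, Benjamini-Hochberg adjustment, threshold 0.05, R 4.3.3). Comparisons within libraries had the library as a block. CPM is per 1000000 UMIs of the sum and is not scaled by gene length, so levels are compared between cells and not between genes. UMIs of Foxp3 may include reads of transcripts that overlap it. Each library is 1 mouse, and 3 against 3 libraries cannot give an exact two-sided p below 0.1. Shares of cells carry counting error that depends on depth, hence the thinning to 1500 UMIs. Alternatives were DESeq2 1.42.0, other scaling, filters and limits, and each library left out. Scripts were tested on simulated data.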

Additional observations from a re-analysis of the deposited data

Results flagged for a closer look

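One result stood out because the genotypes moved in opposite directions in 2 gates. Among ribosomal-low cells, Ikzf2 was higher in each H2-O KO library than in any H2-O WT library in the Treg gate, and lower in each H2-O KO library in the naive gate. The comparison of the genotype difference between these gates was added after those values had been seen. It gave 1.18 ± 0.24 SE on the log2 scale (edgeR adjusted p = 0.0437), 1 of 2 genes called among 5887 tested (0.034%). It did not pass with DESeq2 (1.23, adjusted p = 0.512), nor without H2-O KO replicate 1 (1.07) or 2 (1.01) or H2-O WT replicate 1 (1.19), 2 (1.26) or 3 (1.04). With every cell read at 1500 UMIs before gating it was -0.01 (adjusted p = 0.999), and the Ikzf2 levels of the genotypes overlapped in both gates.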

How the results depend on the processing

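Most settings that changed the call of a single factor are given beside it in the report. The replicate numbers were not taken as pairs of mice, and whether they pair them was not settled. Correlations of same-numbered libraries over all gated cells were -0.077, 0.194 and 0.394. Those of an H2-O KO with a differently numbered H2-O WT library ran from -0.423 to 0.387. With a replicate block the number of genes called between genotypes was 1826 among ribosomal-high gated cells (828 without the block), 121 in the ribosomal-high Treg gate (27), 221 in the ribosomal-low Treg gate (108), 906 in the ribosomal-low naive gate (457) and 201 in the effector gate (83), and Ikzf3 over all gated cells lost its call.

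Without the filter on low counts 167 genes were called in the ribosomal-high Treg gate, 242 in the effector gate and 27 for the interaction of genotype and stratum (12 with the filter). DESeq2 called 560 genes among ribosomal-low gated cells (1207 by edgeR), 50 in the ribosomal-low Treg gate, 176 in the ribosomal-low naive gate and 1 for the interaction of genotype and gate (2 by edgeR). It gave no adjusted p for Ikzf2 in the ribosomal-low naive gate. With at least 2000 UMIs per cell 2228 genes were called over all gated cells (3537 as reported), 17 in the ribosomal-low Treg gate and 6 for the stratum interaction. In that order of the last 2, a limit of 8000 UMIs gave 205 and 38, a mitochondrial limit of 10% gave 237 and 39, and a ribosomal limit of 15% gave 671 and 142, with 3109 among ribosomal-low gated cells and 54 in the effector gate. With a Treg gate of 3 genes, 6 genes were called between genotypes in its ribosomal-low cells and 2219 between its strata (4010 as reported). Library sizes without ribosomal and mitochondrial UMIs gave 28 for the stratum interaction. Gates read at 1500 UMIs gave 494 genes among ribosomal-high gated cells and 0 for the interaction of genotype and gate, where Ikzf2 was -0.01.

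The share of calls that were higher in H2-O KO moved with library sizes that leave out ribosomal and mitochondrial UMIs. It went from 30.1% to 50% in ribosomal-high and 52.0% to 79.6% in ribosomal-low gated cells. In the same strata of the naive gate it went from 38.6% to 53.3% and 56.9% to 86.4%. For higher in ribosomal-low cells, it went from 51.2% to 60.1% in the Treg gate and 51.0% to 62.2% in the naive gate (75.7% and 78.5% with total UMIs). Low counts limit the ribosomal-low gates.

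With 1 library left out, genes called ran from 1731 to 4029 over all gated cells, 55 to 1123 in ribosomal-high and 498 to 1195 in ribosomal-low gated cells, 8 to 104 in the ribosomal-low Treg gate, 592 to 1848 and 73 to 641 in the ribosomal-high and ribosomal-low naive gates, 35 to 121 in the effector gate, 5 to 104 for the stratum interaction and 1 to 7 for the gate interaction. The Ikzf2+ share difference ran from -3.37 to 0.0766 percentage points. The Ikzf2+ share of Foxp3+ cells differed by 0.982 (1000 UMIs), 0.702 (3000 UMIs) and 3.91 (no thinning) percentage points, and in ribosomal-high cells by 0.685 (3000 UMIs) and 2.06 (no thinning). Its difference between strata was 34.0 at 3000 UMIs and 22.0 at a ribosomal limit of 15% (exact sign-flip permutation test, p = 0.03125 each), against 1.83 with no thinning (exact p = 0.844) and 9.25 at 1000 UMIs outside ribosomal protein and mitochondrial genes (exact p = 0.219). Ribosomal-low cells had a median of 1778 UMIs, so most of them were too shallow to be used at 3000 UMIs.

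Differences of single factors that changed sign are given here on the log2 scale. None of these passed the test on either side except where a call is named. In the ribosomal-high Treg gate, between genotypes, Foxp3 was 0.02 without the filter, 0.01 with the replicate block and 0.09 at 8000 UMIs, Ikzf1 was 0.02 and Ikzf4 -0.07 with a Treg gate of 3 genes, and Ikzf3 was -0.09 with gates read at 1500 UMIs. In the ribosomal-low Treg gate Ikzf3 was -0.03 without the filter, -0.08 with 3 genes and -0.12 with gates read at 1500 UMIs. Gates read at 1500 UMIs also gave 0.12 for Ikzf2 in the ribosomal-low naive gate (called as reported), -0.10 for Ikzf2 in the effector gate, -0.11 for Ikzf5 between Treg and naive gates (-0.02 with 3 genes), and -0.78 for Foxp3 between strata of the naive gate (called both ways). Between strata of the Treg gate total UMIs gave 0.13 for Foxp3 (called as reported) and 0.33 for Ikzf4, which was 0.21 at a mitochondrial limit of 10% and 0.48 at a ribosomal limit of 15% (called there). With 1 library left out, Ikzf2 ran from -0.40 to 0.10 over all gated cells and from -0.92 to 0.60 in the ribosomal-high naive gate, and Foxp3 from -0.37 to 0.56 in the ribosomal-low naive gate. In the ribosomal-high Treg gate Foxp3 ran from -0.12 to 0.15, Ikzf1 from -0.11 to 0.03, Ikzf2 from -0.16 to 0.01, Ikzf3 from -0.11 to 0.20 and Ikzf4 from -0.02 to 0.23, in the ribosomal-low Treg gate Ikzf3 ran from -0.14 to 0.19, and between Treg and naive gates Ikzf5 ran from -0.05 to 0.12. The causes were not tested. Outside these, of the factors' other alternatives 526 kept their direction and their side of the threshold, 25 lost a call and 5 gained one, and with 1 library left out the numbers were 285, 30 and 1.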
